A study of Mus musculus with 4 samples.

Results

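Barcodes that met a rule for natural killer (NK) cells were 63 of the 20124 held by 2 expression libraries of peritoneal immune cells, 1 library for each diet. The rule also took in barcodes with transcripts of a related lineage, the type 1 innate lymphoid cells, as described below. The cells came from wild-type mice by lavage of the peritoneal cavity and were sorted for CD45, the surface protein of white blood cells, before droplet sequencing of the 3′ ends of transcripts. In the group called CD the mice ate chow, and in the group called HFD a high-fat diet, for 3 months from an age of 4 weeks. A treatment note in the labels would put CD on the high-fat diet too, so the groups used here follow the sample titles and the study's design text. The number of mice, their sex and any pooling are not given in the sources used here, and with 1 library for each diet no difference between the diets could be tested. Every interval below is a 95% interval for counting error of unique molecular identifiers (UMIs) or barcodes only.

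The members were chosen on their own transcripts. A barcode was taken as an NK cell when it had 300 or more genes, at most 10% of UMIs from mitochondrial genes and no contig in the B-cell receptor table of its diet. It also needed 2 or more UMIs over Ncr1, Klrb1c and Eomes, with 0 or 1 UMI over Cd3e, Cd3d and Cd3g and none of Cd8b1 or Trac. At most 2 UMIs were allowed over the B-cell genes Cd79a and Ms4a1, and at most 1 over the macrophage genes Adgre1, Prg4 and Alox15. The rule found 29 barcodes in the CD library and 34 in the HFD library, of 13069 and 6684 barcodes that passed the limits on genes and mitochondrial UMIs. Another 70 barcodes of the CD library and 79 of the HFD library reached the NK sum but broke 1 or more of the other limits, most often that on Cd3 genes, with 59 and 64 barcodes.

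NK cells are innate lymphocytes that kill infected or transformed cells without a rearranged antigen receptor. They weigh signals from activating receptors, such as NKp46 (Ncr1) and NK1.1 (Klrb1c), against inhibitory receptors of the Ly49 family (Klra genes), which bind MHC class I on healthy cells. Killing runs through granules loaded with perforin (Prf1) and granzymes (Gzma, Gzmb), and activated NK cells also release interferon gamma and chemokines. Conventional NK cells depend on the transcription factor Eomes and mature from a CD27-high to a CD11b-high, KLRG1-bearing stage. A related lineage, the type 1 innate lymphoid cells (ILC1), shares NKp46 and NK1.1 but usually lacks Eomes and carries the interleukin 7 receptor (Il7r), CXCR6 and CD49a (Itga1).

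The 250 bases before the annotated start are shown for 5 genes on which the results turn: Ncr1 because the rule used it, Gzma and Prf1 as granule effectors, and Klra4 and Klra8 as a pair of Ly49 genes that behaved differently between the libraries. They come from RefSeq with build GRCm38.p6, run 5′ to 3′ on the strand of the gene, and capitals mark matches on either strand to the letters TGTGGT (RUNX factors), GTGTGA (T-box factors such as Eomes and T-bet) or CAGGAAGT (ETS factors). The positions are chr7:4337465-4337714 on the plus strand for Ncr1, chr13:113100982-113101231 on the minus strand for Gzma, chr10:61297586-61297835 on the plus strand for Prf1, chr6:130067272-130067521 on the minus strand for Klra4 and chr6:130129899-130130148 on the minus strand for Klra8.
Ncr1: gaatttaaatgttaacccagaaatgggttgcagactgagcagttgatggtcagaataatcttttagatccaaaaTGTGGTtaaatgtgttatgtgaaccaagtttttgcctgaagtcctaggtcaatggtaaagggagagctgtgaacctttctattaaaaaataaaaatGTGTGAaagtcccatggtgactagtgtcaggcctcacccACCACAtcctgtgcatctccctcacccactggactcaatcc
Gzma: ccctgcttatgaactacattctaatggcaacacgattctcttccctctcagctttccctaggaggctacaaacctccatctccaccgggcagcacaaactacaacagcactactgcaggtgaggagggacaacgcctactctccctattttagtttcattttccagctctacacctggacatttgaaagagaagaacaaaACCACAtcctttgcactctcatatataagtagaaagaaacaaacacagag
Prf1: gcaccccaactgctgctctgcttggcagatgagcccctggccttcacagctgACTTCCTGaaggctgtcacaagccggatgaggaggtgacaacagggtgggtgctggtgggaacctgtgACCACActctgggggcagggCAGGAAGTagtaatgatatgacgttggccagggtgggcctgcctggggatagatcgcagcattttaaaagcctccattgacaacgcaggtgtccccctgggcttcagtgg
Klra4: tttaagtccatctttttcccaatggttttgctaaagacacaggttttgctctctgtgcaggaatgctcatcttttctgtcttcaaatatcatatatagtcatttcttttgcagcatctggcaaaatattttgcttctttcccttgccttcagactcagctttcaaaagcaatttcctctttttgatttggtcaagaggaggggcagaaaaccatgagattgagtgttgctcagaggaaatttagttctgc
Klra8: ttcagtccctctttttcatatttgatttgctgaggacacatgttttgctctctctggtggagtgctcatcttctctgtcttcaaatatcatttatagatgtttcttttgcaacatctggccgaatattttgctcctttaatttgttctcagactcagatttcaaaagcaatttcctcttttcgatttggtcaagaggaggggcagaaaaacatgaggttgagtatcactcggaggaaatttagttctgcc
The Ncr1 window held 2 RUNX matches and 1 T-box match, the Gzma window 1 RUNX match, and the Prf1 window 1 RUNX and 2 ETS matches. The Klra4 and Klra8 windows held none of these letters and were identical at 212 of 249 aligned bases (85.1%). Among 19 of the 25 genes of the NK signature described below that had a window, 7 held the RUNX letters (36.8%, against 14.2% of 27025 genes), 4 the T-box letters (21.1%, against 12.2%) and 5 the ETS letters (26.3%, against 2.73%). A match is a string of letters and was not tied to binding of any factor.

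All members carried Nkg7, a gene of cytotoxic lymphocytes that the rule did not use. It was present in 29 of 29 barcodes of the CD library and 34 of 34 of the HFD library, with 3, 7 and 37 UMIs as the lowest, median and highest values in CD and 1, 12 and 35 in HFD. Among B-cell barcodes, which should lack the gene, 1.05% (CD) and 2.08% (HFD) held an Nkg7 UMI. The genes of the rule are given as a description. Ncr1 was present in 26 of 29 and 33 of 34 barcodes, Klrb1c in 27 and 33, and Eomes in 16 of 29 (55.2%) and 18 of 34 (52.9%). Their presence follows from the rule, so among these 4 markers only Nkg7 lies outside it. CD8 T cells share Nkg7, at levels given below, so it cannot by itself tell NK cells from other cytotoxic lymphocytes. Eomes was at 0 in nearly as many barcodes as it was found in.

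At the edge of the rule, 5 CD members and 1 HFD member held exactly 2 UMIs of the 3 genes. With the other limits kept, 9 CD barcodes and 2 HFD barcodes held only 1 such UMI and fell just outside. Of those, 8 of 9 and 2 of 2 held Nkg7. The members had a median of 2972 UMIs in CD (762 to 6254) and of 3277.5 in HFD (1001 to 9917), against medians of 4464 and 6452 over all barcodes past the filter. The depth therefore favoured the HFD library slightly among the members. The libraries shared 30 barcode sequences, none of them a member.

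Barcodes that met the NK rule were a larger share of the HFD library. They made up 0.222% of barcodes past the filter in CD (0.149 to 0.319%) and 0.509% in HFD (0.353 to 0.710%), a difference of 0.287 percentage points (0.113 to 0.499). Among barcodes without a B-cell receptor contig the shares were 0.487% and 1.13%. CD8 T cells were also a larger share in HFD, at 0.865% and 2.15%, and for every 100 CD8 T-cell barcodes there were 25.7 NK barcodes in CD and 23.6 in HFD. For every 100 gamma-delta T-cell barcodes there were 42.6 and 131 NK barcodes. Barcodes with a B-cell receptor contig were 54.4% of those past the filter in CD and 55% in HFD. The NK share was thus larger in HFD over both denominators. It counts members with UMIs of ILC1 markers, described below. Of the members, 12 in CD and 4 in HFD held 2 or more such UMIs, and 17 and 30 held 0 or 1. Absolute cell numbers are not given in the sources used here. When members with any UMI of Cd79a, Ms4a1, Adgre1, Prg4 or Alox15 were left out, 13 members stayed in each library and the difference was 0.0950 points (-0.0123 to 0.239), an interval that includes 0.

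Of 1175 genes with 100 or more counts per 1000000 UMIs (CPM) in the NK sums of both libraries, 70 (5.96%) were 2-fold or more above each of 5 other pools in both. These pools, defined by marker genes and without any UMI of Ncr1, Klrb1c or Eomes, were B cells, macrophages, CD8 T cells, other alpha-beta T cells and gamma-delta T cells. The 25 genes at the head of that order hold 4 Ly49 receptor genes (Klra3, Klra4, Klra8, Klra9), 5 other lectin-like receptor genes (Klri2, Klrb1a, Klre1, Klrb1f, Klrc2), 4 genes of killing (Gzma, Gzmb, Prf1, Fasl), the chemokine Xcl1, the T-bet gene Tbx21 and the interleukin 12 receptor gene Il12rb2. The others are Car2, Itgax, Padi2, Arsb, Samd3, Gm4956, Gm43647 and the unnamed genes ENSMUSG00000121359 and ENSMUSG00000121360. The cells were picked by NK receptors, so this order describes them and tests nothing.

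Gzma, a serine protease of killer granules, gave 115 UMIs in the CD members (1337 CPM) and 522 in the HFD members (4203 CPM). The highest other pool, CD8 T cells, held 2 UMIs (3.70 CPM) and 4 UMIs (4.41 CPM). Klra4 gave 48 and 89 UMIs in the members and no UMI in macrophages or in any of the 3 T-cell pools of either library, with 0 and 2 UMIs in B cells. Klre1, which pairs with other lectin receptors, stood at 605 and 829 CPM in NK against 35.1 and 13.2 CPM in CD8 T cells. Genes shared with T cells were graded instead: Nkg7 was at 2965 and 3993 CPM in NK, 1049 and 879 CPM in CD8 T cells, and 2.03 and 3.11 CPM in B cells. The signal adaptor Tyrobp (DAP12) was higher in macrophages (3847 and 3935 CPM) than in NK (3221 and 3285 CPM).

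Another 34 barcodes in CD and 49 in HFD reached the same NK sum but held 2 or more UMIs of Cd3 genes. They are the part of the 59 and 64 above without a receptor contig and within the limits on B-cell and macrophage genes. This pool was not among the 5 and held several signature genes, such as Klre1 at 134 and 206 CPM, ENSMUSG00000121360 at 36.6 and 282 CPM and Tbx21 at 91.4 and 114 CPM. It carried Ccl5 at 18832 and 12036 CPM against 14839 and 13639 CPM. Gzma, Klra4 and Tyrobp were lower there. Gzma stood at 134 CPM in CD and 0 of 315143 UMIs in HFD in this pool, and Klra4 at 3 UMIs and 0 UMIs. Tyrobp was at 219 and 225 CPM there.

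**Figure D1:**
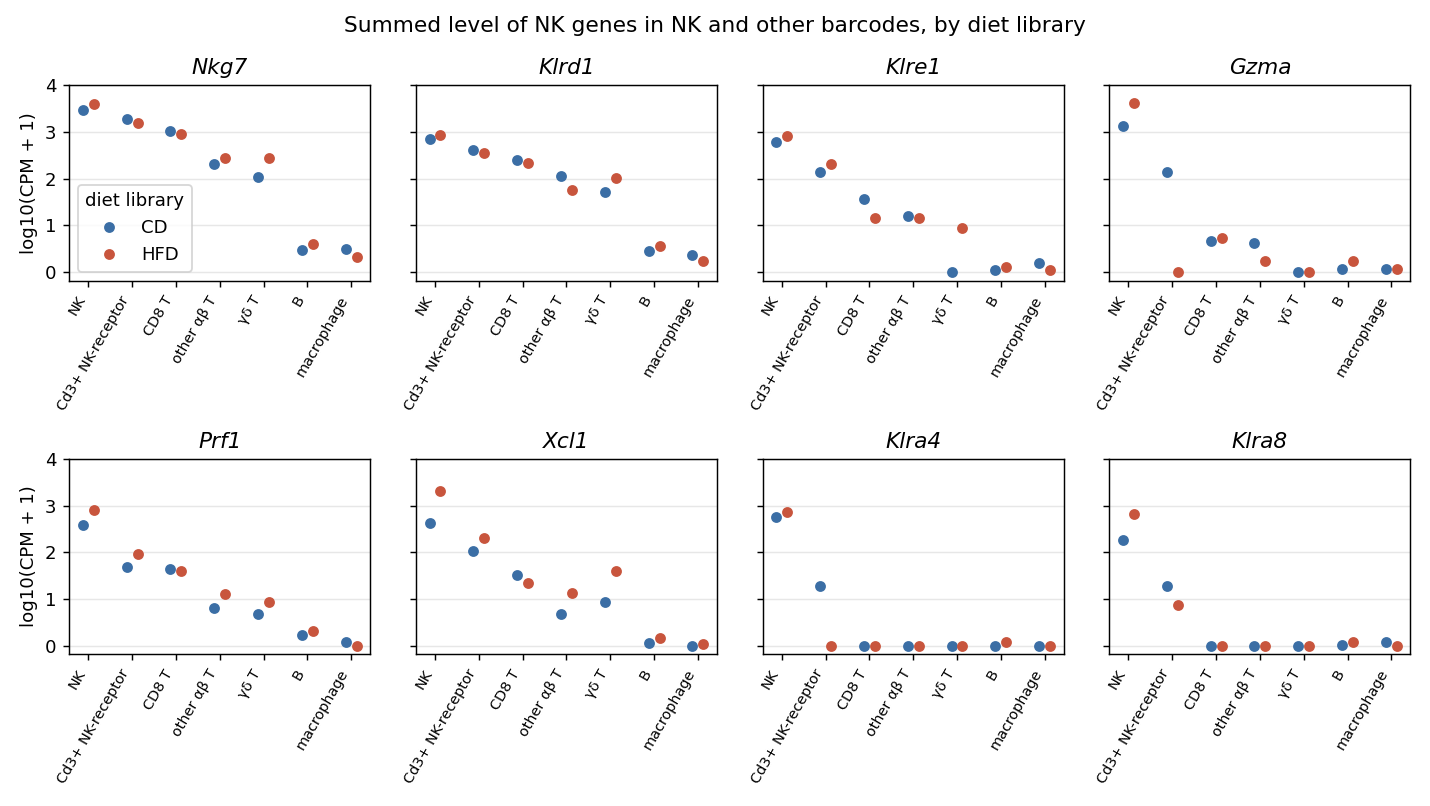
Summed level of 8 NK genes as log10(CPM + 1) on the vertical axis, in the NK members and 6 other pools on the horizontal axis, with 1 point for each diet library. Klra4 and Klra8 are at 0.194 CPM or less in the B-cell, macrophage and 3 T-cell pools, while Nkg7 in CD8 T cells is at 1049 CPM (CD) and 879 CPM (HFD).

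Among the members, the libraries differed in how many barcodes carried ILC1 markers. Over 8 such genes (Itga1, Cxcr6, Tnfsf10, Il7r, Cd200r1, Inpp4b, Tmem176a, Tmem176b), 12 of 29 CD barcodes held 2 or more UMIs and 4 of 34 HFD barcodes did, a difference of -29.6 percentage points (-48.9 to -7.88). With 5 or more UMIs the counts were 9 of 29 (31.0%) and 2 of 34 (5.88%). The cutoffs were set with the values known and cut a continuous sum, with 3 CD and 2 HFD barcodes between 2 and 4 UMIs. The sum had a median of 1 UMI in CD and 0 in HFD. It rested mostly on 3 of the 8 genes. Of its 127 UMIs in CD, Tmem176b gave 54, Il7r 38 and Tmem176a 15, and of its 25 UMIs in HFD they gave 7, 11 and 2. Tnfsf10 was at 1 UMI in CD and 2 in HFD. Inpp4b, at 7 and 3 UMIs, was found in 33.8% and 44.0% of B-cell barcodes.

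The CD barcodes with the most ILC1 marker UMIs held no Gzma or Ly49 UMI. None of the 9 barcodes with 5 or more ILC1 marker UMIs held a Gzma UMI or a UMI of any of the 11 Ly49 genes, 1 of 9 held Eomes and 2 of 9 held Prf1, with 2 UMIs in all. Of the 12 with 2 or more marker UMIs, 2 held Gzma, 3 a Ly49 gene and 4 Prf1. All 9 held Nkg7 and Ccl5, 8 held Ncr1 and all 9 held Klrb1c. Il7r was present in 8 of them (32 UMIs), Tmem176b in 8 (53 UMIs), Rora in 5, Cxcr6 in 3 and Itga1 in 2. The 9 barcodes had a median of 3616 UMIs in all (1382 to 4816), and the 17 CD barcodes with 0 or 1 marker UMI a median of 2452. Of those 17, 15 held a Ly49 UMI, 13 Gzma and 13 Eomes.

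In the HFD library 30 of 34 barcodes held 0 or 1 ILC1 marker UMI, and 28 of these carried a Ly49 UMI and 29 carried Gzma. Of the 2 HFD barcodes with 5 or more marker UMIs, 1 held both Gzma and Ly49 UMIs. Itga1 was at 4 UMIs in CD and 0 in HFD, and Cxcr6 at 7 and 0. Both counts are small, and 0 of 34 barcodes allows a share of up to 8.82% of cells with a UMI, at 3 counts of the total. Il1rl1, a marker of type 2 innate lymphoid cells, gave no UMI in any member. Tmem176b and Il7r are also transcripts of other peritoneal cells. In gamma-delta T cells Tmem176b stood at 2553 CPM in CD and 1254 in HFD, and in macrophages at 739 and 211 CPM, so it was lower in HFD in those pools too. Il7r was also lower in HFD in CD8 T cells (log2 ratio -0.56, -0.79 to -0.32) and in other alpha-beta T cells (-0.56, -0.71 to -0.42). In gamma-delta T cells its log2 ratio was -0.10 (-0.43 to 0.22).

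**Figure D2:**
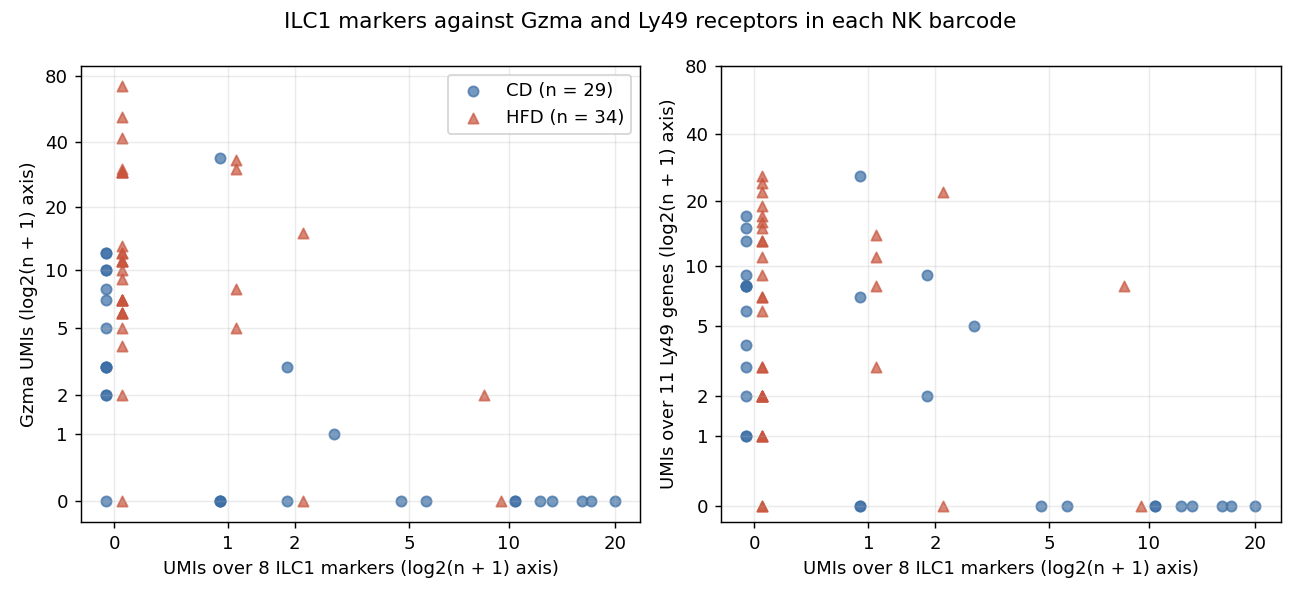
Each point is 1 NK barcode, with UMIs over the 8 ILC1 markers on the horizontal axis and UMIs of Gzma (left) or of 11 Ly49 genes (right) on the vertical axis, all on log2(n + 1) axes. The 9 CD barcodes with 5 or more ILC1 marker UMIs lie at 0 in both panels. In that range lie 2 HFD barcodes, 1 of them with 2 Gzma and 8 Ly49 UMIs.

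Between the diets, 28 of 687 genes with 40 or more UMIs in the NK sums (4.08%) were 2-fold or more higher in the HFD members and 9 (1.31%) 2-fold or more lower. The median log2 ratio was 0.07. Over the 1610 genes with 20 or more UMIs, on which the gene lists below were read, 54.8% lay above 0, 6.21% were 2-fold or more higher and 3.42% 2-fold or more lower. These are sums over 29 and 34 cells of 1 library each, and they include the 12 and 4 barcodes with 2 or more ILC1 marker UMIs. UMIs of a gene cluster in single cells, so the counting intervals are too narrow.

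Of the genes of killing, Gzma, Prf1 and Gzmb were higher in the HFD members. Gzma was present in 15 of 29 CD barcodes (51.7%) and 31 of 34 HFD barcodes (91.2%). Its UMIs per barcode ran from 0 through a median of 1 to 34 in CD, and from 0 through 9.5 to 72 in HFD. The ranges overlap, and 5 of 29 CD barcodes lie above the HFD median. The log2 ratio of CPM was 1.65 (1.36 to 1.96), and with every barcode thinned to 1500 UMIs Gzma was found in 44.0% of 25 and 90.3% of 31 barcodes.

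Prf1, the pore-forming protein of the granule, stood at 384 CPM (CD) and 797 CPM (HFD), with a log2 ratio of 1.05 (0.47 to 1.67). After thinning to 1500 UMIs it was found in 36% and 74.2% of barcodes. Gzmb, a granzyme that triggers caspases, gave 9 and 38 UMIs, a log2 ratio of 1.55 (0.47 to 2.78). Its inhibitor Serpinb9, which shields the killer cell from its own granzyme B, gave 6 and 22 UMIs, a log2 ratio of 1.34 (-0.0026 to 2.94). Of 11 measured granule genes, 9 lay above 0 and 2 below, and 4 were 2-fold or more higher. Of all genes 54.8% lay above 0 and 6.21% were 2-fold or more higher. The granule median was 0.43 against 0.05 over all genes. Nkg7 had a log2 ratio of 0.43, Ctsw of 0.32 and Srgn, the proteoglycan that packs the granule, of -0.27.

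**Figure D3:**
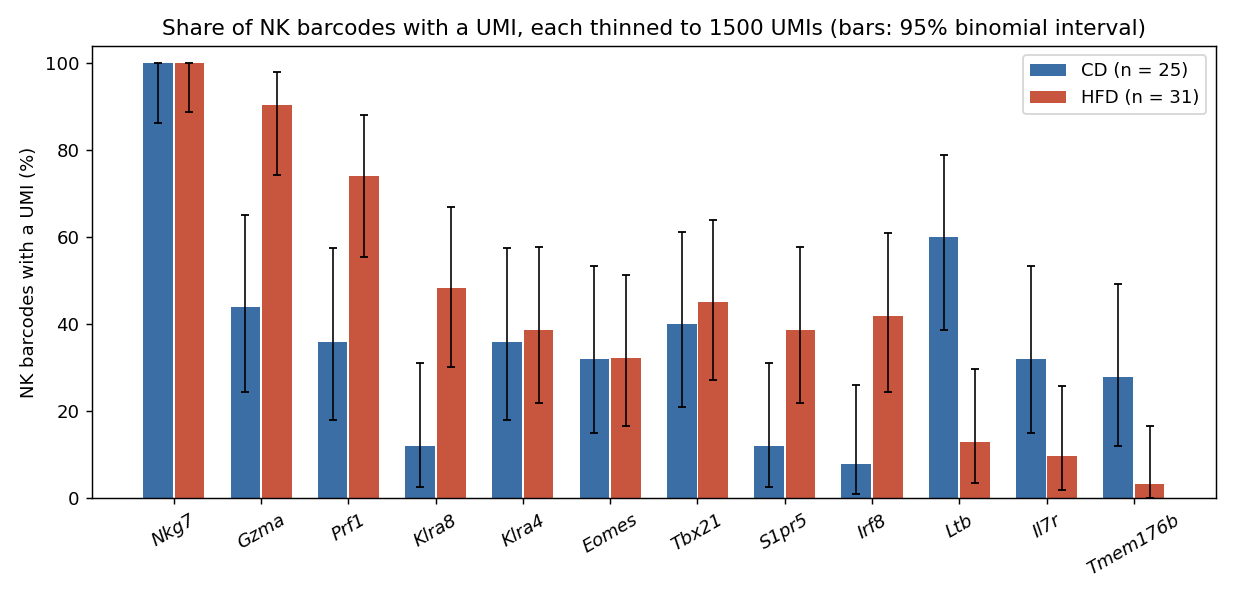
Bars give the percent of NK barcodes with a UMI of each of 12 genes after thinning every barcode to 1500 UMIs, with 95% binomial intervals, for 25 CD and 31 HFD barcodes. Gzma, Prf1, Klra8, S1pr5 and Irf8 are higher in HFD, Nkg7, Klra4, Eomes and Tbx21 are close, and Ltb, Il7r and Tmem176b are lower in HFD.

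The Ly49 receptors differed in both directions. Klra8 (Ly49H, an activating receptor that recognises a viral glycoprotein) gave 16 UMIs in 6 CD barcodes and 82 UMIs in 19 HFD barcodes, a log2 ratio of 1.83 (1.04 to 2.70). Klra7 (Ly49G) gave 13 and 37 UMIs, a log2 ratio of 0.98 (0.03 to 2.01). Klra4 (Ly49D) was present in 10 of 29 and 15 of 34 barcodes (558 and 717 CPM), its log2 ratio being 0.36 (-0.16 to 0.90), and Klra9 (Ly49I) had a ratio of -0.18. Klra3 (Ly49C) was lower, with 28 and 21 UMIs and a log2 ratio of -0.95 (-1.83 to -0.08). Any of the 11 Ly49 genes was found in 18 of 29 CD barcodes and 30 of 34 HFD barcodes. Reads of these genes can be shared between near-identical copies, so each single Klra value is uncertain, and only some of the genes are expressed in any 1 cell.

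Ccl4 had the highest ratio of the named genes, and 2 HFD barcodes held most of its UMIs. Ccl4, an inflammatory chemokine, gave 7 UMIs in 5 CD barcodes and 171 UMIs in 11 HFD barcodes, with a highest barcode of 3 UMIs in CD and 114 in HFD. The log2 ratio was 4.08 (3.01 to 5.42). Xcl1, which attracts cross-presenting dendritic cells, gave 37 and 250 UMIs, a ratio of 2.23 (1.72 to 2.77), yet was found in as large a share of barcodes in CD (69.0%) as in HFD (64.7%). A pair of HFD barcodes, 1 of them the deepest member at 9917 UMIs, held 147 of the 171 Ccl4 UMIs (86.0%) and 200 of the 250 Xcl1 UMIs (80%). Without that pair the log2 ratio was 1.43 (0.18 to 2.89) for Ccl4 and 0.09 (-0.55 to 0.75) for Xcl1.

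Ccl3, a relative of Ccl4, was spread more evenly, with 2 UMIs in 2 CD barcodes and 24 UMIs in 12 HFD barcodes, at most 6 in a barcode. Without the same pair its log2 ratio was 2.83 (0.76 to 5.98), against 3.05 with it. Ifng gave 4 and 17 UMIs, of which the pair held 7. Ccl5, the chemokine RANTES, was present in every member with sums of 14839 CPM (CD) and 13639 CPM (HFD), the log2 ratio being -0.12 (-0.23 to -0.02). Lymphotoxin beta (Ltb), which shapes lymphoid tissue, was lower, in 21 of 29 CD barcodes and 13 of 34 HFD barcodes with a log2 ratio of -0.99 (-1.69 to -0.30). Of 8 measured cytokine and chemokine genes, 4 lay above 0, all of them 2-fold or more, and 4 below. Over all genes the shares were 54.8% above 0 and 6.21% 2-fold or more higher. The median of the 8 was 0.72. That median lies between the groups of 4 and depended on the members: it was -0.16 with an NK sum of 3 or more, -0.25 with an Eomes UMI, 0.0078 with 0 or 1 ILC1 marker UMI and -0.08 without the pair of barcodes.

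Of 11 measured genes of NK maturation 9 lay above 0 in HFD and 7 were 2-fold or more higher, against 54.8% and 6.21% of all genes. Their median was 1.19 against 0.05 over all genes. Among barcodes with 0 or 1 ILC1 marker UMI the median was 0.56. Gzma, Gzmb and Prf1 are among the 7, so the list overlaps with that of the granule, and so is Cma1, a chymase gene also used as a mast cell marker (4 and 16 UMIs; log2 ratio 1.47, -0.16 to 3.51). Irf8, a transcription factor of NK maturation, gave 7 UMIs in 6 CD barcodes and 56 UMIs in 20 HFD barcodes, a log2 ratio of 2.47 (1.33 to 3.85). The pair of Ccl4-rich HFD barcodes held 20 of these 56 UMIs (35.7%), and without it the log2 ratio was 2.02 (0.83 to 3.43). Irf8 is also a B-cell and macrophage gene, at 178 and 151 CPM in B cells and 124 and 67.4 CPM in macrophages. In the members B-cell markers summed to 2826 and 1997 CPM and macrophage markers to 1465 and 1803 CPM, and their part in the Irf8 difference was not tested. Klrg1, an inhibitory receptor of late NK cells, was found in 1 of 29 and 13 of 34 barcodes (log2 ratio 2.11, 0.58 to 4.10; 0.72 among barcodes with 0 or 1 ILC1 marker UMI). S1pr5, which lets mature NK cells leave tissues, was found in 6 of 29 and 15 of 34 barcodes (log2 ratio 1.19, -0.08 to 2.65). Zeb2 (-0.08) and Ly6c2 (-0.49) lay below 0, and Klf2 was at 0.07.

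The immature list was divided. Of its 11 measured genes 5 lay above 0 and 6 below, where 54.8% of all genes lay above 0. Its median was -0.01. Cd27 and Tcf7, markers of the early stage, had log2 ratios of -0.01 and 0.02. Cd7 was lower (-0.81, -1.30 to -0.34), as was Emb (-0.86, -1.59 to -0.14).

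Of 12 measured NK receptor genes outside the Ly49 family 8 lay above 0 and 2 were 2-fold or more higher, against 54.8% and 6.21% of all genes. The 2 were Klrg1 and Klrb1a (9 and 26 UMIs, with a log2 ratio of 1.0, -0.14 to 2.28). The median of the 12 was 0.23, and -0.05 among barcodes with 0 or 1 ILC1 marker UMI. Tyrobp and Fcer1g, the adaptors of activating receptors, had log2 ratios of 0.03 (-0.20 to 0.25) and 0.01 (-0.24 to 0.26). Of 12 measured adaptor and kinase genes 1 was 2-fold or more higher, near the 6.21% of all genes. It was Sh2d2a, an adaptor of lymphocyte signalling, with 10 UMIs in 7 CD barcodes and 35 UMIs in 20 HFD barcodes (1.28, 0.23 to 2.46). Klrk1 (NKG2D, an activating receptor for stress ligands) had a ratio of 0.36 and Klrd1 (CD94) of 0.29, and Klrc1 (NKG2A, its inhibitory partner) of -0.44 (-1.04 to 0.15). Among cytokine receptors Il2rb, the chain that binds interleukin 15, was at 663 and 966 CPM (0.54, 0.08 to 1.02) and Ifngr1 had a ratio of 0.51. Il7r was the exception of that list at -2.32.

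Transcription factors of NK identity were likewise near even. Tbx21 (T-bet) was found in 16 of 29 and 21 of 34 barcodes with a log2 ratio of -0.29 (-1.06 to 0.49), and Eomes, a gene of the rule, had 0.11. Id2, which NK cells and all innate lymphoid cells need, was at 1709 and 1320 CPM (-0.37, -0.70 to -0.04). Ets1 (-0.08), Runx3 (-0.39) and Gata3 (-0.045) lay near or below 0. Bach2, a repressor of effector genes, gave 7 and 27 UMIs (1.42, 0.18 to 2.86). Of 11 measured factors 5 lay above 0 and 2 were 2-fold or more higher, Irf8 and Bach2, against 54.8% and 6.21% of all genes.

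Other genes at the head of the order were Pik3cd, a catalytic subunit of phosphoinositide 3-kinase, found in 6 of 29 and 18 of 34 barcodes (log2 ratio 1.97, 0.70 to 3.51), and Iqgap1, a scaffold of the actin cytoskeleton, in 12 and 23 barcodes (1.57, 0.80 to 2.43). Lpcat4, a phospholipid acyltransferase, was found in 8 and 21 barcodes and Add1, which caps actin filaments, in 7 and 19. The integrin gene Itga4 was at 163 and 362 CPM (1.15, 0.26 to 2.13). In each of these genes the HFD library had the larger share of barcodes with a UMI. At few UMIs per barcode that share largely repeats the sum. In CD, Pik3cd gave 6 UMIs in 6 barcodes and Lpcat4 9 in 8. The shares were not thinned. After thinning, the log2 ratios were 2.01 (Pik3cd), 1.81 (Iqgap1), 0.91 (Lpcat4), 0.79 (Itga4) and 0.37 (Add1). Among barcodes with 0 or 1 ILC1 marker UMI, the intervals of Pik3cd (-0.14 to 3.39) and Lpcat4 (-0.09 to 3.03) included 0. Those of Iqgap1 (0.58 to 2.79), Itga4 (0.01 to 2.29) and Add1 (0.40 to 4.45) lay above 0.

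At the low end stood Tmem176b and Il7r, which are among the 8 ILC1 markers, and genes of other roles. Tmem176b, an endosomal ion channel gene, gave 54 UMIs in 9 CD barcodes and 7 UMIs in 3 HFD barcodes (log2 ratio -3.48, -4.86 to -2.34). Il7r gave 38 UMIs in 11 CD barcodes and 11 UMIs in 3 HFD barcodes (-2.32, -3.44 to -1.32). S100a4, a calcium-binding protein of motile cells, gave 28 and 12 UMIs (-1.75, -2.86 to -0.73). Of B-cell barcodes, at median depths of 4507 and 5748 UMIs, 13.1% and 15.3% held a Tmem176b UMI, so the share of HFD members with one (8.82%) was no higher than that background and the share of CD members (31.0%) was. For Il7r 2% and 1.3% of B-cell barcodes held a UMI, below both libraries' members.

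Rsrp1, an arginine- and serine-rich protein gene, was found in 19 of 29 and 11 of 34 barcodes (-1.73). Ndufa6, a subunit of respiratory complex I, was found in 20 and 14 barcodes (-1.39), and Eif4b, a translation initiation factor, in 19 and 14 (-1.25). Septin9, Sri, Mbnl1, Ptges3 and Supt4a had ratios of -1.12 to -0.98. The Septin9 difference was in UMIs per positive barcode and not in the number of positive barcodes, 10 of 29 and 12 of 34.

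**Figure D4:**
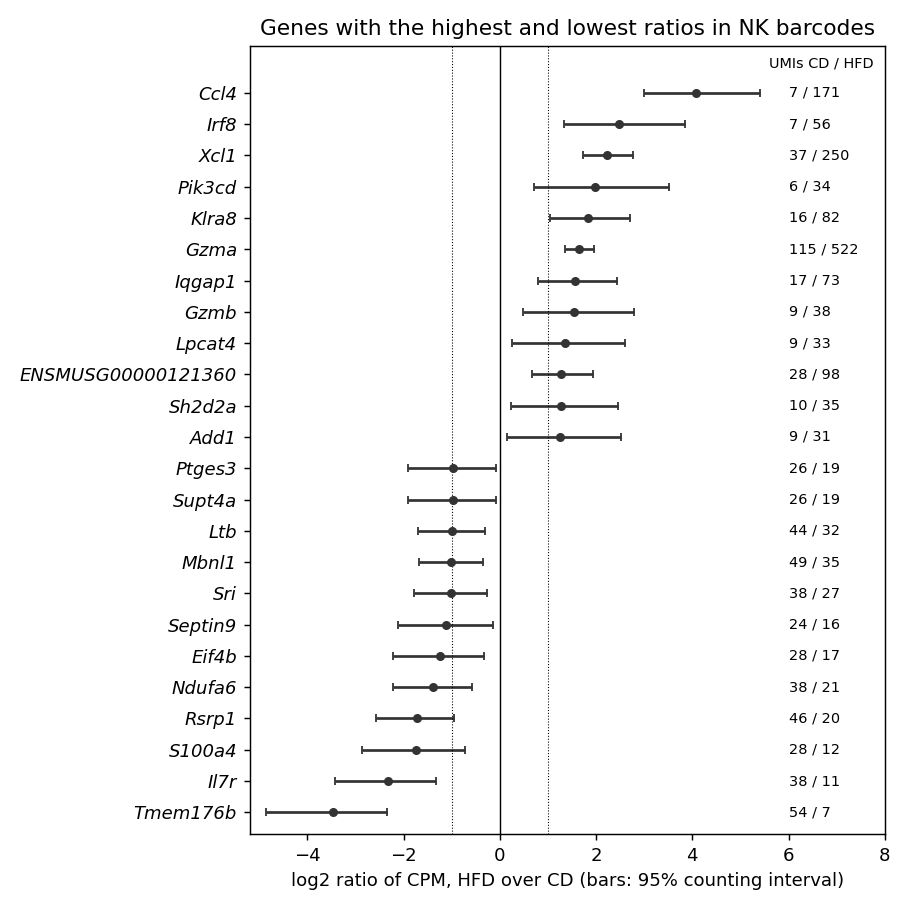
Log2 ratio of CPM, HFD over CD, on the horizontal axis for the 12 highest and 12 lowest genes in NK barcodes, with 95% counting intervals, dotted lines at 2-fold and the UMI sums of each library at the right. Ccl4 is highest at 4.08 and Tmem176b lowest at -3.48.

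All 5 measured genes of fatty acid use lay above 0, where 54.8% of all genes did, with a median of 0.55. Acot7, a fatty acyl-CoA hydrolase, gave 14 and 43 UMIs (1.09, 0.19 to 2.07). The other 4 lay between 0.25 and 0.55 with intervals that include 0. Of 37 genes on that list 32 were too low to read. Glycolysis genes had a median of 0.24 over 10 genes, with Gapdh at 0.51 (0.10 to 0.93), and 31 respiratory chain genes a median of 0.14. Of 11 immediate early genes 8 lay above 0, against the same 54.8%, and none was 2-fold or more higher. The phosphatase gene Dusp2 led them (0.91, 0.21 to 1.65). Their median was 0.46 over all members and 0.07 among barcodes with 0 or 1 ILC1 marker UMI. Heat shock genes had a median of -0.17, with Hspa8 at -0.69 (-1.05 to -0.32). Interferon response genes had a median of -0.01 and MHC class I genes of 0.14. No member held a UMI of Mki67, a marker of dividing cells.

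**Figure D5:**
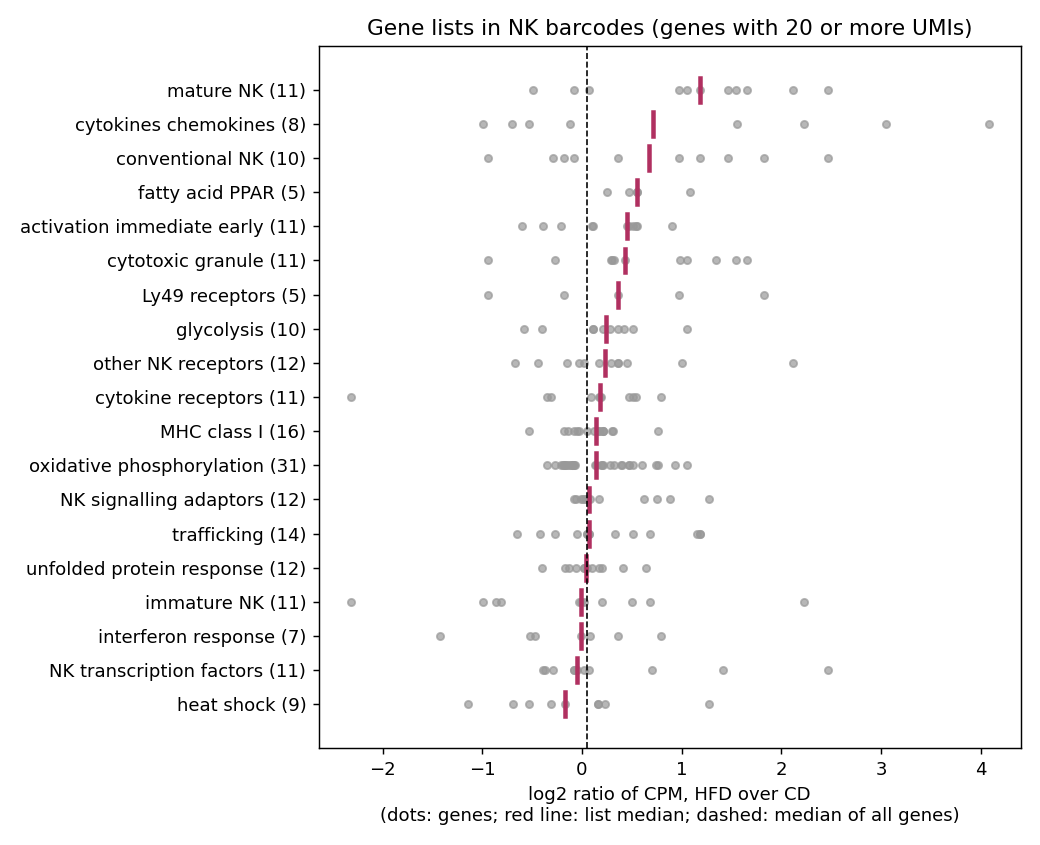
Log2 ratio of CPM, HFD over CD, on the horizontal axis for the measured genes of 19 lists on the vertical axis, with the number of genes in brackets. Dots are genes, red lines list medians and the dashed line the median of all genes at 0.05; the mature NK list is highest with 1.19.

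Many of these differences depended on which members were compared. Among barcodes with 0 or 1 ILC1 marker UMI, 17 in CD and 30 in HFD, Gzma stood at 2523 CPM (CD) and 5048 CPM (HFD), with a log2 ratio of 1 (0.70 to 1.31) where it was 1.65 over all members. Klra8 was at 1.89 (0.89 to 3.08) and Irf8 at 1.75 (0.52 to 3.27), so both kept an interval above 0. Prf1 was at 0.38 (-0.26 to 1.07), Gzmb at 0.62 (-0.55 to 1.97), Klrg1 at 0.72 (-0.93 to 2.77) and S1pr5 at 0.69 (-0.66 to 2.28), all with intervals that include 0. S100a4 was at 0.23 (-1.83 to 2.78). Klra4 was at -0.56 (-1.10 to -0.01) and Klra9 at -1.10 (-1.85 to -0.34), below 0 in these barcodes. The median of the mature list was 0.56 there, and that of the Ly49 list was -0.56 where it was 0.36 over all members.

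Members with an Eomes UMI, 16 in CD and 18 in HFD, shared some of these values and not others. Gzma stood at 2318 CPM (CD) and 4264 CPM (HFD), with a log2 ratio of 0.88 (0.56 to 1.21), Irf8 at 2.01 (0.77 to 3.54) and Klra8 at 1 (0.17 to 1.91). Prf1 was at 0.30 (-0.36 to 0.99). Klra4 was at 0.04 (-0.58 to 0.67), Klra9 at -1.67 (-2.72 to -0.69) and Xcl1 at 3.43 (2.63 to 4.36). The pair of Ccl4-rich HFD barcodes carries Eomes and gave 200 of the 232 HFD Xcl1 UMIs and 20 of the 40 HFD Irf8 UMIs here. Over all members without that pair, the Xcl1 ratio was 0.09. The Ly49 median was 0.04, and the heat shock median was 0.53 where it was -0.83 among barcodes with few ILC1 marker UMIs. Il7r gave 8 UMIs in CD and 0 in HFD in these barcodes.

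Transcripts used as markers of other cell types were present in the members, and whether they came from such cells was not tested. Over 15 B-cell markers the sum was 2826 CPM in CD (524 to 10499 in single barcodes) and 1997 CPM in HFD (324 to 5972), 6.09% and 4.07% of the level in B cells, with Cd74 as the largest part at 120 and 116 UMIs. Over 15 macrophage markers the sum was 1465 CPM (0 to 4010) and 1803 CPM (162 to 6334), 1.35% and 2.32% of the level in macrophages, with Lyz2 at 50 and 133 UMIs. Adgre1, which the rule limits to 1 UMI, was at 0 in both. Over 15 alpha-beta T-cell markers the sum was 512 CPM (0 to 3276) and 588 CPM (0 to 2208), 12.1% and 14.4% of the level in alpha-beta T cells and mostly Trbc1 and Trbc2. Cd4 was at 0 in both, while Trac and Cd8b1 were at 0 by the rule. The B-cell, macrophage and alpha-beta T-cell lists all hold genes that the rule limits, so it partly set their sums and percentages. Gamma-delta T-cell markers summed to 233 and 274 CPM, 5.76% and 10.4% of the level in gamma-delta T cells. Trdv4 was the largest part at 14 and 18 UMIs, and the constant gene Trdc gave 1 and 8 UMIs. Of 11 mast cell and neutrophil markers 3 had a UMI in CD and 2 in HFD, led by Cma1, with Kit at 1 and 2 UMIs and the defining mast cell markers Cpa3, Mcpt4, Tpsb2 and Ms4a2 at 0, as were all 9 mesothelial and stromal markers. The part of these transcripts in the differences between the diets was not tested.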

How the data were processed

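Droplet single-cell RNA libraries of CD45-sorted peritoneal cells were analysed, 1 for each diet, with the B-cell receptor table of each diet used only to leave out barcodes. Per the labels' protocols, libraries were made with the 10x 3′ kit v3.1. The deposited matrices hold raw UMI counts per gene and barcode, and the deposited contig tables hold UMI counts per contig. Per the file headers the matrices were written by Cell Ranger 8.0.1, while Cell Ranger 6.0.1 and Seurat 4.3.0 are listed in the submitters' processing notes.

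The members and lists were chosen with earlier results of these data known. UMIs were summed over members within a library and scaled to 1000000 (CPM). Ratios of sums have exact conditional Poisson intervals, shares have exact Clopper-Pearson intervals and differences of shares Newcombe intervals, all 95% and covering counting error only; the limit beside a count of 0 is 3 counts of the barcodes. No p-value was computed. Genes needed 40 UMIs over both sums and 10% of barcodes in 1 library for the count past 2-fold, and 20 UMIs to enter a list. Named genes were the 12 highest and 12 lowest ratios among genes at 25% or more of the B-cell and macrophage levels, up to 5 of the largest ratios in each list, and members of the Ly49, granule, cytokine and transcription factor lists with 40 or more UMIs. Label markers, genes of the rule and the first 25 genes by NK level over other pools were also named. Cd27, Fcer1g, Klrd1, Klrk1, Ly6c2, Tcf7, Tyrobp and Zeb2 fall outside this rule for ratios and were chosen after their values were seen. Thinning drew 1500 UMIs from each barcode, leaving out 4 CD and 3 HFD members. No doublet caller was run; the rule limits transcripts of other cell types, and 16 of 29 and 21 of 34 members still held a UMI of its B-cell or macrophage genes. The ratio code was tested on simulated data. Python 3.11.15, numpy 2.4.6, scipy 1.17.1 and pandas 2.3.3 were used. Values of some genes are not reported here.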

Additional observations from a re-analysis of the deposited data

How the results depend on the processing

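No paired analysis was possible because each diet has 1 library and the labels give no replicate numbers. With members freed of any UMI of the B-cell and macrophage genes, the NK shares were 0.0995% in CD and 0.194% in HFD and the difference 0.0950 points; under the other 7 definitions of members the difference lay between 0.248 and 0.330 points. Counts of genes 2-fold or more higher and lower, 28 and 9 in the text, were 18 and 5 of 231 genes with those members, 8 and 2 of 213 after thinning to 1500 UMIs, 10 and 1 of 275 with a floor of 80 UMIs, 100 and 55 of 1610 with a floor of 20 UMIs and no filter on barcodes, and 15 and 4 of 321 with an Eomes UMI. Fewer genes or cells entered in most of these. The lower count was 17 with an NK sum of 1 or more and 17 after centring on the median ratio, where the higher count was 22 and the share of higher among all calls 56.4% in place of 75.7%. Lists with a median above that of all genes numbered 14 of 19, and 9 both with an Eomes UMI and with 0 or 1 ILC1 marker UMI. Detection of Prf1 was 17.9% and 47.1% at 1000 UMIs in place of 36% and 74.2% at 1500. Among ratios whose interval left out 0, the sign changed for Septin9 when thinned (0.69), for S100a4 with few ILC1 markers (0.23) and for Ccl5 when thinned (0.0911), with equal weight per barcode (0.0071) and with few ILC1 markers (0.0078); the causes were not tested. Among ratios whose interval included 0, Klra4 (lowest -0.56), Tbx21 (highest 0.29) and Tyrobp (lowest -0.20) also changed sign under 1 or more alternatives. Of 445 gene ratios under alternatives 413 stayed within the counting interval of the value in the text. That count is partly fixed in advance. Keeping barcodes with a receptor contig left the same 29 and 34 members, so its values could not differ, and it is also 1 of the 7 definitions above. Centring moved every ratio by the same 0.07. The alternatives on ILC1 markers and on the pair of Ccl4-rich barcodes were chosen after seeing the data. Depth limits what can be read: Eif4b, with 28 and 17 UMIs, had an interval of -2.21 to -0.33.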
